A study of Mus musculus with 30 samples.

Results

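Kmt2c-KO mouse embryonic stem cells that carried GRHL2-ERT but received only ethanol were compared with Kmt2c-KO cells that lacked the transgene and received tamoxifen. The comparison used 12 of the 30 libraries in the series, chosen by the genotype and treatment in their labels: 3 libraries of each group at 8 h and 3 of each at 16 h. All 12 were naive stem cells (C57BL/6J x 129), kept in serum medium with LIF and with inhibitors of MEK and GSK3. The transgene-bearing genotype is labelled Kmt2cKO; Kmtd fl/fl;GRHL2-ERT and the other Kmt2cKO; Kmtd fl/fl, so every library lacked Kmt2c and carried floxed alleles. GRHL2-ERT had been introduced by transposition, after which clones were selected for similar GRHL2 levels. Transgene, clonal selection and agent (ethanol or tamoxifen) therefore differ together between the compared groups. Tamoxifen libraries of the GRHL2-ERT line match the transgene-free cells in agent, with the factor active, and their values are given beside the main differences. Transgene and clone cannot be told apart in either. The design text also names ethanol-treated cells without GRHL2-ERT, but every library of the series labelled without GRHL2-ERT received tamoxifen. Replicates are numbered with no word on whether they were separate cultures, so the p-values measure the spread between these libraries, which may be technical. The comparison asks how far the transgene acted without tamoxifen, and how the lines differed otherwise.

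GRHL2 is a grainyhead-like transcription factor that opens enhancers of epithelial genes such as those of tight junctions and of epithelial splicing. Fusion to the ligand-binding domain of the estrogen receptor (ERT) holds a factor in the cytoplasm, bound by heat-shock chaperones, until tamoxifen binds it and the fusion enters the nucleus. Such fusions can be leaky, with some protein in the nucleus before any ligand is given. Clones of embryonic stem cells are also known to drift apart in genomic imprinting and in sex chromosome gene expression, whatever transgene they carry.

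RNA was read as 3′ tags, 1 stretch per transcript end, and levels are given in CPM (each gene's reads scaled to a common library total). The 12 libraries held 12.3 to 18.9 M reads, recovered from the steps between low values, and 3 reads corresponded to 0.159 to 0.244 CPM. The 10 markers of naive embryonic stem cells (Pou5f1, Sox2, Nanog, Klf2, Klf4, Esrrb, Tfcp2l1, Zfp42, Dppa5a and Tdgf1) were all detected, and summed to 8408 to 10090 CPM with GRHL2-ERT and 9431 to 9953 CPM without it at 8 h. At 16 h these sums were 11554 to 12146 and 11658 to 12053 CPM. Of 6 feeder fibroblast markers 3 were in the table, and Col1a1, Col1a2 and Thy1 together reached at most 2.44 CPM in any of the 12 libraries. The ribosomal RNA precursor Rn45s took 2.01% to 7.40% of reads. The 8 h GRHL2-ERT ethanol libraries were the least alike, each with a mean correlation of 0.981 to its own group, and replicate 2 correlated better with the transgene-free cells (0.986). Replicate 1 of the 16 h cells without the transgene had 0.984, and the other 8 libraries 0.987 to 0.991. Among these, replicates 2 and 3 of the 16 h cells without the transgene had 0.987 and 0.988. Both correlated better with the GRHL2-ERT ethanol libraries at 16 h (0.988 and 0.990).

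Few genes separated the uninduced GRHL2-ERT cells from the transgene-free cells. At 8 h 13 of 12414 genes tested passed (0.105% of genes, 10 or 0.0806% higher and 3 or 0.0242% lower with GRHL2-ERT), by limma on log2(CPM + 1) at an adjusted p under 0.05. At 16 h 21 genes passed (0.169%), 9 higher (0.0725%) and 12 lower (0.0967%). The average over both times called 35 genes (0.282%), 19 higher (0.153%) and 16 lower (0.129%). Grhl2, Esr1, Meg3, Ddx3y and Eif2s3y were called at both times, which is 38.5% of the 8 h list and 23.8% of the 16 h list. Groups of 3 did not overlap for 16% of all genes at 8 h and 18.9% at 16 h. With size factors computed as medians of ratios, the 16 h calls became 3 higher and 16 lower. Leaving out replicate 2 of the double-KO tamoxifen cells at 8 h, the shallowest library of the series and no member of these groups but a part of the shared estimate of the spread, gave 69, 58 and 107 calls, which kept all 13, 21 and 35. Leaving out single libraries of the compared groups gave 5 to 10 calls at 8 h and 6 to 13 at 16 h.

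**Figure D1:**
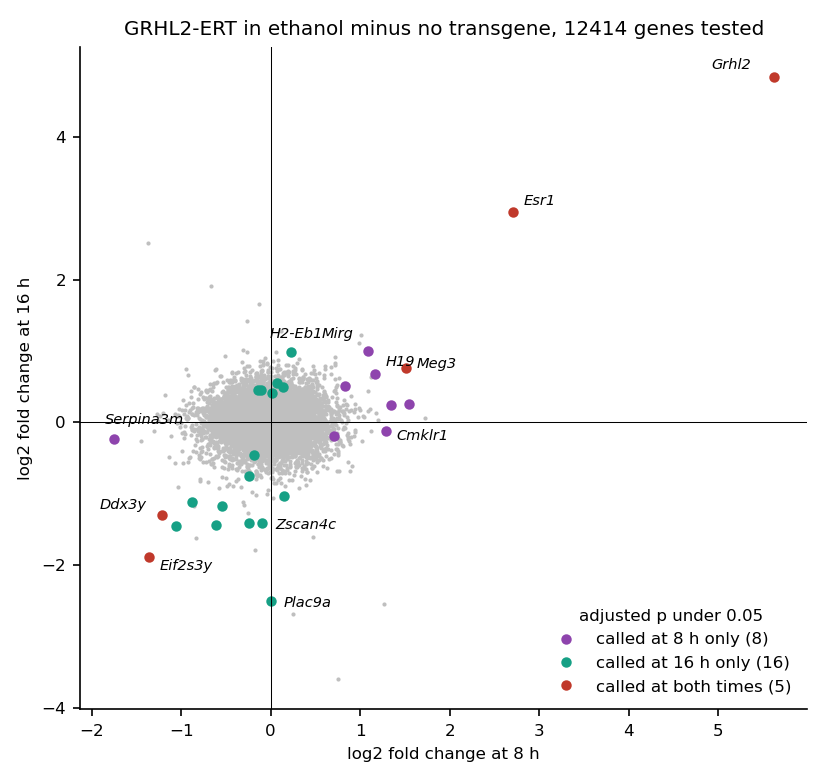
Log2 fold change of every tested gene (GRHL2-ERT in ethanol minus no transgene, on log2(CPM + 1)) at 8 h on the x axis and 16 h on the y axis. Grhl2 (5.62 and 4.83), Esr1 (2.71 and 2.95) and Meg3 (1.52 and 0.77) lie to the upper right, and Ddx3y (-1.22 and -1.30) and Eif2s3y (-1.36 and -1.88) to the lower left, of a cloud centred near 0.

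Grhl2 and Esr1, the genes of the factor and of the receptor part of the fusion, both read higher with GRHL2-ERT. Grhl2 (chr15:37233036-37363569, mm10) stood at 210, 158 and 165 CPM in the 3 ethanol libraries with GRHL2-ERT at 8 h, and at 1.90, 3.55 and 2.53 CPM without it. At 16 h the transgene-bearing libraries held 69.2, 73.5 and 90.2 CPM of Grhl2 and the others 1.40, 2.50 and 1.46 CPM. Every library with the transgene lay far above every library without it, by 66.9-fold at 8 h and 43.5-fold at 16 h in mean CPM. The fitted log2 fold changes of Grhl2 were 5.62 (SE 0.25, limma adjusted p = 2.6e-14) and 4.83 (SE 0.25, limma adjusted p = 9.8e-13). Tamoxifen-treated libraries of the same line held 162, 159 and 189 CPM of Grhl2 at 8 h and 64.6, 86.6 and 81.2 CPM at 16 h.

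Esr1 (chr10:4611593-5005614), the gene of the estrogen receptor whose ligand-binding domain ERT is taken from, gave 15.5, 51.9 and 26.2 CPM with GRHL2-ERT at 8 h and 3.85, 3.15 and 3.18 CPM without. At 16 h its levels were 59.2, 61.5 and 54.5 CPM against 7.41, 7.87 and 5.05 CPM. The groups did not overlap at either time, and the log2 fold changes were 2.71 (SE 0.47, limma adjusted p = 0.014) and 2.95 (SE 0.47, limma adjusted p = 0.0051). As a share of the Grhl2 level, Esr1 read 7.35%, 32.7% and 15.9% in the 8 h ethanol libraries and 85.6%, 83.6% and 60.4% at 16 h. Which transgene bases these tags come from is not given in the sources used here. The other members of the grainyhead-like family, Grhl1 and Grhl3, were not called at either time.

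Kmt2c, the methyltransferase gene deleted in every group, read 17.7, 24.1 and 16.9 CPM with GRHL2-ERT and 18, 15.8 and 13.1 CPM without at 8 h (log2 fold change 0.30, limma adjusted p = 0.59). Tags at the 3′ end do not check a deletion elsewhere in the gene, and the deleted part is not stated in the labels. Kmt2d, its paralogue, read 15.2, 23.4 and 16.1 CPM against 8.76, 13.6 and 7.70 CPM at 8 h, groups that did not overlap but missed the threshold (log2 fold change 0.82, SE 0.23, limma adjusted p = 0.25). At 16 h the log2 fold change of Kmt2d was 0.31 (limma adjusted p = 0.91).

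**Figure D2:**
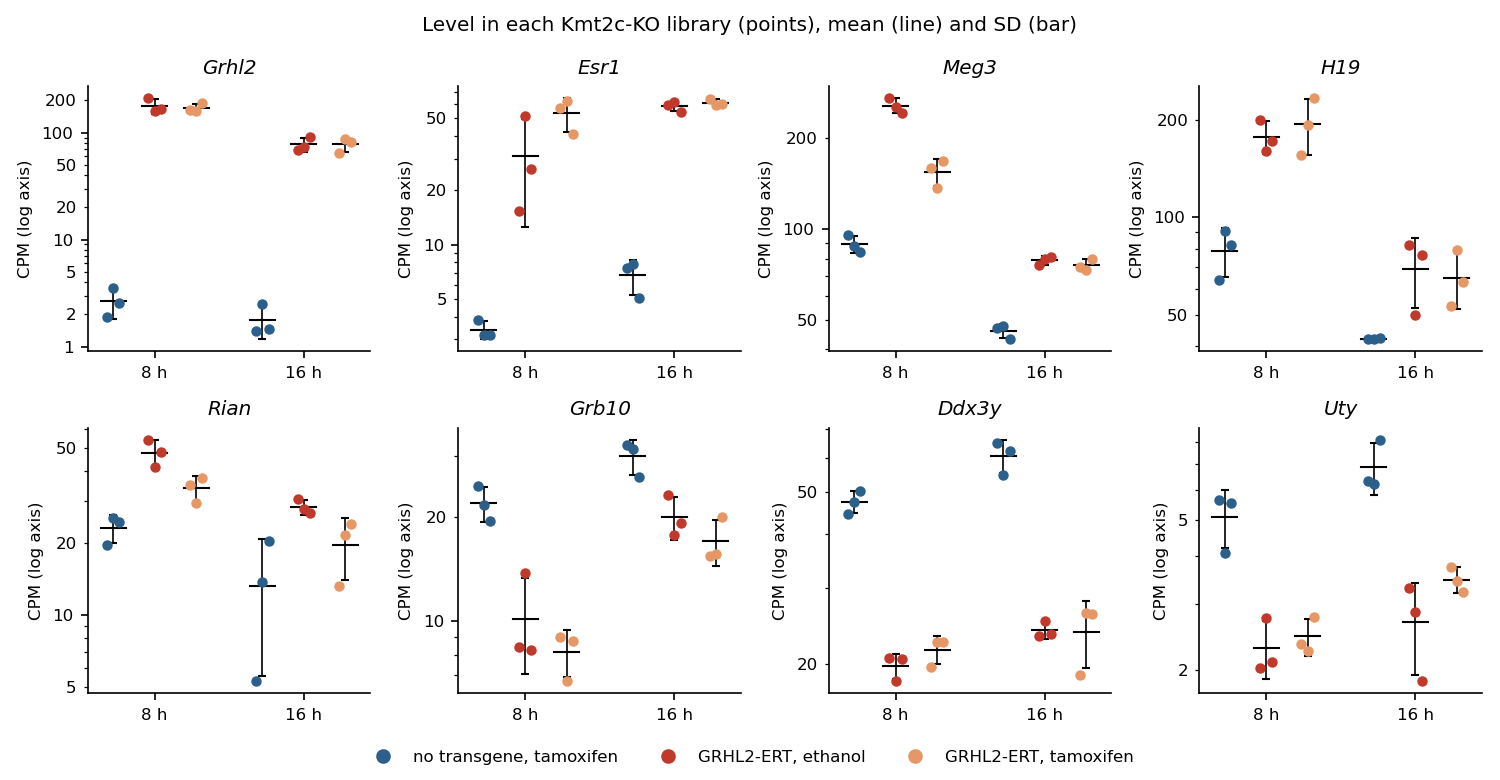
CPM on a log axis of 8 genes, 1 point per library with the mean (line) and SD (bar) of 3, for no transgene in tamoxifen, GRHL2-ERT in ethanol and GRHL2-ERT in tamoxifen at 8 h and 16 h. Grhl2 lies between 64.6 and 210 CPM in every library with the transgene and at most at 3.55 CPM without it, and Ddx3y shows the opposite order.

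A leak of GRHL2 would appear as raised levels of its induced genes before tamoxifen. To measure this without shared libraries, genes induced by tamoxifen in the GRHL2-ERT line at 1 time were read in the uninduced comparison at the other time. Genes chosen this way can include responses to tamoxifen itself, which the transgene-free cells also received. A gene raised by the agent alone would read lower in the uninduced cells, which could hide a leak. How many genes do so was not tested. Tamoxifen raised 36 genes at 16 h (0.29% of genes) by a median of 1.16 on the log2 scale, and lowered 1 (0.00806%). In ethanol at 8 h the same 36 genes had a median difference of 0.00 from the transgene-free cells, with quartiles of -0.11 and 0.14, against -0.02 for all genes. Of the 36, 17 lay above 0 (47.2%, against 46.1% of all genes). None passed limma's adjusted threshold or the voom fit, and 3 were higher (8.33%, against 4.58% of all genes) and 1 lower at an unadjusted p under 0.05. Without replicate 2 of the double-KO tamoxifen cells at 8 h limma called 1 of the 36 higher, the tight junction gene Cldn4. Genes below 1 CPM in both compared groups passed the filter on low values through other groups, where some are high, and 25 of the 36 were at 1 CPM or more (median 0.00). The upper end of the 95% interval lay under 1 for 35 of the 36, and under 0.5 of the gene's own response for 25.

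Tamoxifen raised 362 genes at 8 h (2.92% of genes) by a median of 0.95. In ethanol at 16 h those 362 genes had a median difference of -0.02, against 0.03 for all genes, and 171 lay above 0 (47.2%, against 55.8% of all genes). By limma 0 of them were called, and the voom fit called 0. At an unadjusted p under 0.05, 21 were higher and 21 lower, 5.80% each, against 4.31% and 2.50% of all genes. Without the double-KO library named above 0 were called higher and 2 lower. In a compared group 307 of the 362 reached 1 CPM (median -0.02). The upper end of the 95% interval stayed under 1 for 352 of the 362, where the median response was 0.95, and under 0.5 of the gene's own response for 222. That response belongs to 8 h. At 16 h tamoxifen raised 36 genes, and mean Grhl2 in ethanol was 77.6 CPM, against 178 CPM at 8 h. The 8 h response is therefore no measure of the size a leak could have at 16 h. Of the 362, Dkkl1 was called higher in ethanol at 8 h (1 gene, against 0.0806% of all genes). With Acadvl and Gadd45g it was called on average over both times (3 genes, against 0.153%). These 3 genes stood higher without tamoxifen and rose further with it (limma adjusted p = 0.0091, 0.021 and 0.029 for the 8 h response), in comparisons that share the 8 h ethanol libraries. Over the set of 362 the counts at an unadjusted p under 0.05 went the other way, a direction that the choice of the genes favours. At 8 h 10 were higher (2.76%, against 4.58% of all genes) and 60 lower (16.6%, against 571 of 12414). On average 12 were higher (3.315%, against 4.72%) and 44 lower (12.15%, against 3.399%). These counts share the 8 h ethanol libraries with the choice of the genes, with the opposite sign. Spread in those libraries alone makes chosen genes read lower, so the direction is not evidence. Genes that tamoxifen lowered at 8 h showed the reverse, with 68 higher (26.9%) and 2 lower (0.79%) at 8 h. The 154 of the 362 that responded by at least 1 had a median of -0.06 in ethanol at 16 h. The 253 genes that tamoxifen lowered at 8 h (2.04% of genes) had a median of 0.01 there.

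**Figure D3:**
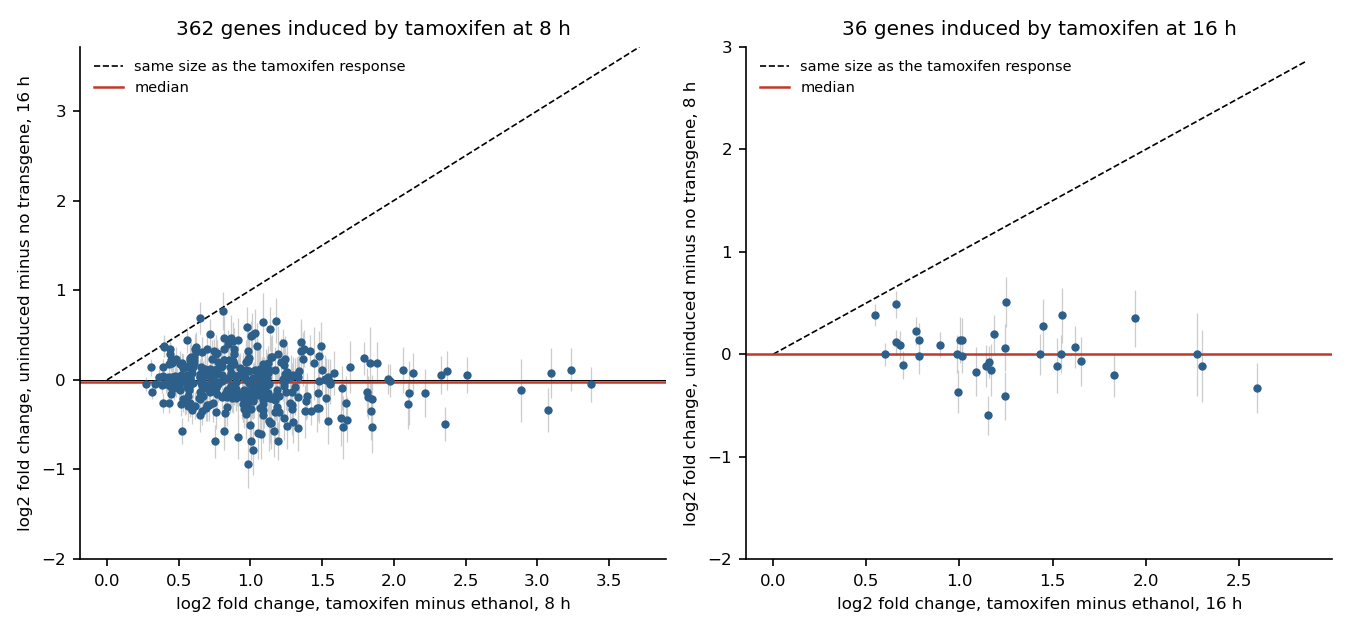
Each point is a gene induced by tamoxifen in the GRHL2-ERT line, with its tamoxifen response (log2 fold change) on the x axis and, on the y axis, its log2 fold change between uninduced and transgene-free cells at the other time, with bars of 1 SE. The median (red) lies at -0.02 for the 362 genes induced at 8 h and at 0.00 for the 36 induced at 16 h. The dashed line marks equal size with a response measured at the other time, not at the time of the difference.

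Wnt7b and Esrp1 are examples from the 36 genes induced at 16 h, picked after their values were seen. Wnt7b, a WNT ligand of epithelia, rose with tamoxifen at 16 h from 0.444, 0.953 and 0.935 CPM to 3.45, 5.03 and 5.29 CPM (log2 fold change 1.65). In ethanol at 8 h it read 1.13, 1.22 and 1.54 CPM with GRHL2-ERT against 1.85, 1.71 and 0.807 CPM without (log2 fold change -0.07). The epithelial splicing regulator Esrp1 rose at 16 h from 1.78, 0.476 and 0.935 CPM to 3.60, 4.17 and 6.96 CPM (log2 fold change 1.53). In ethanol at 8 h it read 7.32, 3.98 and 6.24 CPM against 6.23, 7.29 and 5.33 CPM (log2 fold change -0.11). In both genes the uninduced and transgene-free libraries overlapped at 8 h.

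The grainyhead motif AACCNGTT (AACNGGTT when read on the other strand) was searched on both strands in the 250 bases before each gene's start site (RefSeq, GRCm38.p6). It lay in 588 of 32851 promoters (1.79%) or, counted by gene, in 540 of 27025 genes (2.00%). Of the 362 genes induced at 8 h, 274 had a promoter in that table and 8 of these held the motif (2.92%). Of 36 genes with a promoter in the table that were called in the uninduced comparison, 1 held it (2.78%). A match describes letters only and is not shown to be a bound site. The promoter of Cgn (cingulin of tight junctions, chr3:94786483-94786732, minus strand) is printed with the motif in capitals, as an example of a gene induced at 8 h whose promoter holds these letters.
Cgn: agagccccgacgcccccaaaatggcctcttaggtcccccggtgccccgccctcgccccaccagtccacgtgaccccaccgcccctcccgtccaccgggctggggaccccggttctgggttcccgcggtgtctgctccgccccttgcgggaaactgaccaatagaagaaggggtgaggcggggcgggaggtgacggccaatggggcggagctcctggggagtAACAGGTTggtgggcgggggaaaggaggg
On the strand printed the motif reads AACAGGTT. In tamoxifen at 8 h Cgn read 31.7, 42.5 and 22.7 CPM with GRHL2-ERT, and in ethanol 3.45, 10.6 and 7.14 CPM. At 16 h, libraries that did not choose it, ethanol with GRHL2-ERT gave 4.06, 5.88 and 6.11 CPM and the transgene-free cells 7.47, 4.30 and 6.51 CPM. These groups overlapped (log2 fold change -0.15, SE 0.35).

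A list of epithelial genes known as GRHL2 targets had 49 of 59 members tested. In ethanol their median difference was 0.04 at 8 h (27 above 0) and -0.08 at 16 h (22 above 0), and limma called 0 of 49 at either time. At an unadjusted p under 0.05, 7 were higher (14.3%, against 4.58% of all genes) and 1 lower at 8 h and 3 higher (6.12%, against 4.31%) and 2 lower at 16 h, and voom called none. The list was drawn up with results of these libraries known, so its direction is not independent evidence. The tight junction gene Cldn4 came nearest to a call. It read 109, 100 and 112 CPM with GRHL2-ERT and 67.7, 82.2 and 79.6 CPM without at 8 h, and 47.4, 35.7 and 38.3 against 26.7, 34.5 and 35.2 CPM at 16 h. The groups did not overlap at either time, and the log2 difference averaged 0.40 (SE 0.09; adjusted p = 0.058 by limma). Without replicate 2 of the double-KO tamoxifen cells at 8 h, a choice made after seeing the data, the limma adjusted p of Cldn4 was 0.037 at 8 h and 0.0076 on average. The same choice called Wfdc2 higher and Sord lower on average (limma adjusted p = 0.034 each) from this list. In tamoxifen the same line read 175, 177 and 191 CPM of Cldn4 at 8 h and 59.0, 71.6 and 62.0 CPM at 16 h. Epcam and Cdh1, surface adhesion genes of epithelia and of naive stem cells, had log2 fold changes of 0.05 and 0.32 at 8 h and 0.30 and 0.00 at 16 h, none called.

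Imprinted genes, which are expressed from the copy of one parent and are known to lose that restraint in culture, were among the differences between the groups. Of 52 listed genes 43 were tested: at 8 h Meg3, H19 and Mirg rose and none fell, and at 16 h Meg3 alone was called. Averaged over both times Rian and Zrsr1 were also called higher, and Grb10 and Plagl1 lower, against 0.153% and 0.129% of all genes. The median size of the average log2 difference was 0.24 over the 43 genes, against 0.11 over all genes. Of the genes called higher, Meg3, Rian, Mirg and H19 are known as maternally expressed and Zrsr1 as paternally expressed. Snrpn and Snurf, which overlap each other and share reads, had wide intervals, and Snrpn read 0 CPM in replicate 1 of the 16 h cells without the transgene.

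Meg3, Rian and Mirg are noncoding RNAs of the maternally expressed Dlk1-Dio3 cluster on chromosome 12. Meg3 (chr12:109541001-109571726) read 272, 255 and 243 CPM with GRHL2-ERT and 95.6, 87.8 and 84.0 CPM without at 8 h. At 16 h the values were 76.0, 80.0 and 81.0 CPM against 47.1, 48.0 and 43.2 CPM. Neither time showed any overlap, and the log2 fold changes of Meg3 were 1.52 (SE 0.15, limma adjusted p = 3.1e-07) and 0.77 (SE 0.15, limma adjusted p = 0.018). The change between times was -0.75 (SE 0.21, limma adjusted p = 0.34), and its adjusted p was 0.037 without replicate 2 of the double-KO tamoxifen cells at 8 h. In tamoxifen the line with GRHL2-ERT read 160, 137 and 168 CPM of Meg3 at 8 h, between the other groups. Tamoxifen minus ethanol within that line was -0.73 for Meg3 at 8 h (limma adjusted p = 0.0024) and -0.05 at 16 h. Against the transgene-free cells in the same agent its log2 fold changes were 0.79 and 0.71 at 8 h and 16 h (limma adjusted p = 9e-04 and 0.0096).

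Its promoter (chr12:109540746-109540995, plus strand, RefSeq, GRCm38.p6) is printed because imprinted promoters are read through the methylation of CG dinucleotides, which stand in capitals. It holds 10, against a median of 6 in all promoters and 16 in those of genes tested. Methylation was not measured.
Meg3: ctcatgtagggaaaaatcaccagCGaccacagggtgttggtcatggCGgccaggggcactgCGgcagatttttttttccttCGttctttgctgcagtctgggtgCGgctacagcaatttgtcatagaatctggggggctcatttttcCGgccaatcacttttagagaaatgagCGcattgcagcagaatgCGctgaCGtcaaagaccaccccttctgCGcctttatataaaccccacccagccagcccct
Rian (chr12:109603940-109661716) read 54.0, 41.5 and 48.0 CPM against 19.6, 25.5 and 24.5 CPM at 8 h, and 30.7, 27.8 and 26.7 against 5.28, 13.8 and 20.5 CPM at 16 h. Mirg (chr12:109729764-109749460) read 16.7, 12.6 and 13.1 against 4.54, 7.03 and 7 CPM at 8 h, and 5.96, 6.83 and 6.98 against 1.70, 4.16 and 2.86 CPM at 16 h. Neither gene overlapped between groups at either time, and the average log2 fold changes were 1.12 for Rian (SE 0.19, limma adjusted p = 0.0052) and 1.04 for Mirg (SE 0.16, limma adjusted p = 0.00066). In tamoxifen with GRHL2-ERT, matched in agent, neither gene was called. Rian had 0.53 at 8 h and 0.68 at 16 h (limma adjusted p = 0.39 and 0.38). Mirg had 0.65 and 0.58 (limma adjusted p = 0.11 and 0.33). Dlk1, the protein-coding gene of the same cluster expressed from the paternal copy, had log2 fold changes of 0.36 at 8 h and 0.17 at 16 h, neither called.

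H19 (chr7:142575529-142578143), a maternally expressed noncoding RNA, read 200, 160 and 172 CPM with GRHL2-ERT and 64.1, 90.5 and 81.9 CPM without at 8 h. At 16 h it read 81.8, 49.9 and 76.2 CPM against 41.9, 42.1 and 42.3 CPM. The groups did not overlap at either time, with log2 differences of 1.17 (SE 0.22, limma adjusted p = 0.029) and 0.67 (limma adjusted p = 0.41). In tamoxifen with GRHL2-ERT they were 1.28 and 0.59. Its neighbour Igf2, the paternally expressed growth factor, had log2 fold changes of -0.23 and 0.08, neither called. Grb10 (chr11:11930508-12038683), an adaptor that restrains growth signalling, read 8.45, 13.8 and 8.27 CPM against 24.5, 21.7 and 19.5 CPM at 8 h and 23.1, 17.7 and 19.2 against 32.4, 31.5 and 26.0 CPM at 16 h. Its average log2 fold change was -0.81 (SE 0.16, limma adjusted p = 0.014). The growth regulator Plagl1 fell by 0.44 on average (limma adjusted p = 0.046) and the splicing factor gene Zrsr1 rose by 0.38 (limma adjusted p = 0.044). Mest read 9.82, 12.2 and 10.5 CPM against 25.6, 24.1 and 20.3 CPM at 8 h without a call (average log2 fold change -0.98, limma adjusted p = 0.088).

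**Figure D4:**
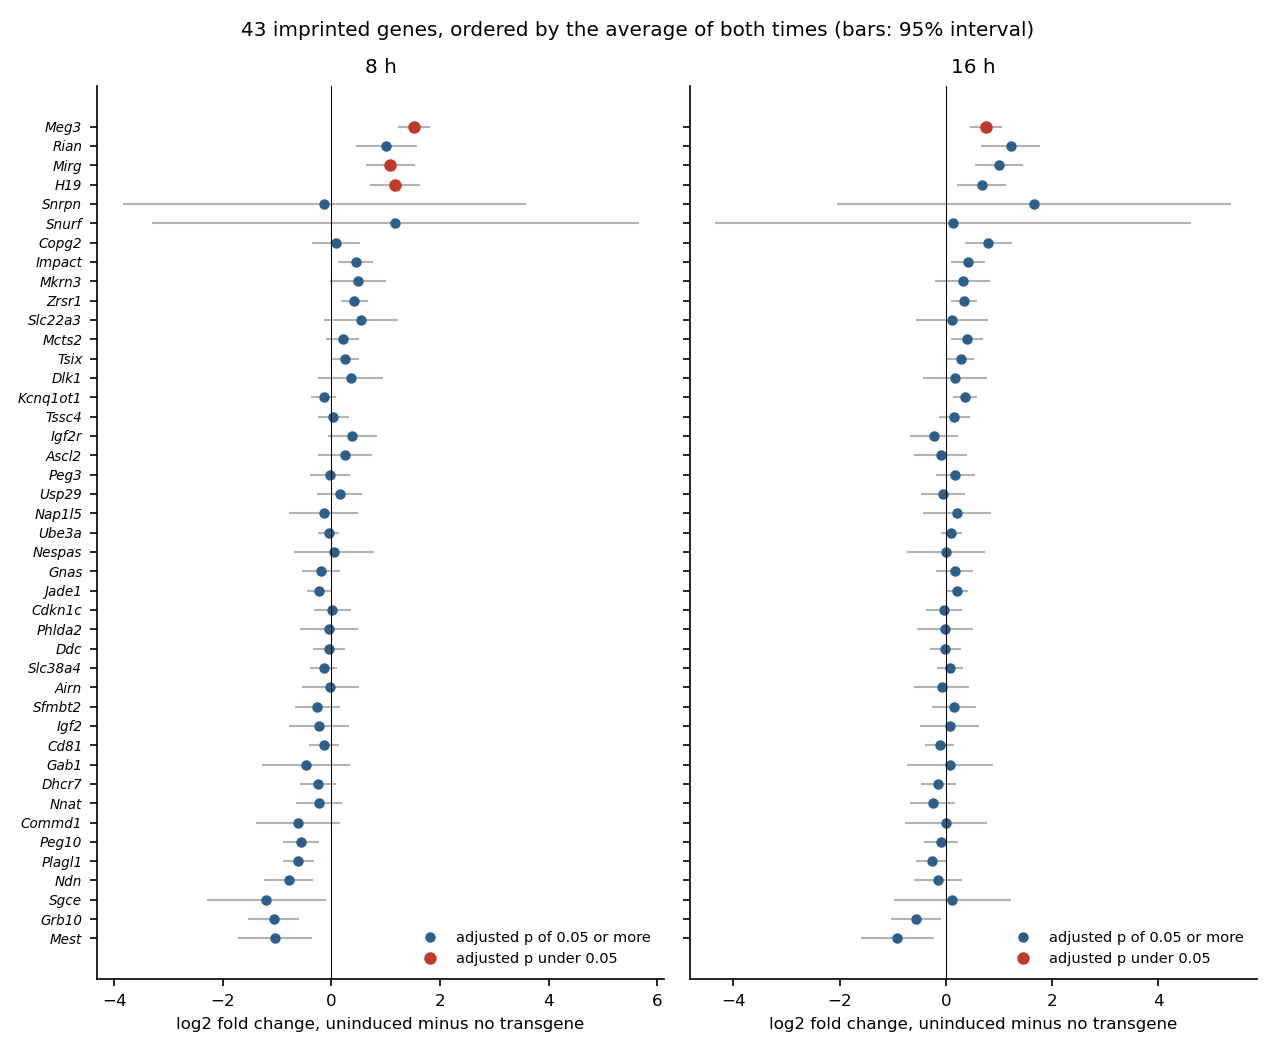
Log2 fold change (x axis) of the 43 tested imprinted genes, GRHL2-ERT in ethanol minus no transgene, at 8 h and 16 h with 95% intervals, in the order of the average over both times. Meg3, Rian, Mirg and H19 lie between 0.67 and 1.52, Grb10 and Mest between -1.07 and -0.56, and the genes at an adjusted p under 0.05 are red.

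Ddx3y, Eif2s3y, Uty and Uba1y of the Y chromosome were called lower in the GRHL2-ERT line. Double-KO cells with GRHL2-ERT in ethanol held more of these 4 genes than both compared groups. Their means at 8 h and 16 h were 115.5 and 139.8 CPM for Ddx3y and 43.4 and 62.6 CPM for Eif2s3y. The median over 6 Y genes tested was -0.75 at 8 h and -1.08 at 16 h. Kdm5d and Zfy1 were among the 6 through the double-KO cells alone and lay near 0 here. Over the other 4 genes, a choice made after seeing the data, the medians were -1.02 and -1.29. The average was -0.92 over 6 genes and -1.16 over 4, each with an exact permutation p of 0.005 over libraries within times, the smallest that the 400 arrangements can give, and an adjusted p of 0.0525 over 21 chromosomes. Ddx3y (chrY:1260771-1286629), an RNA helicase, read 20.6, 18.2 and 20.5 CPM with GRHL2-ERT and 44.5, 47.5 and 50.1 CPM without at 8 h. At 16 h it read 23.3, 25.2 and 23.4 CPM against 64.9, 54.6 and 62.1 CPM. There was no overlap, and the level was lower by 2.39-fold at 8 h and 2.53-fold at 16 h (log2 fold changes -1.22 and -1.30, SE 0.13, limma adjusted p = 7.8e-07 and 2.8e-07). In tamoxifen with GRHL2-ERT, matched in agent, the log2 fold changes of Ddx3y were -1.10 and -1.32 (limma adjusted p = 7e-07 and 1.8e-07).

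Eif2s3y, a translation initiation subunit gene (chrY:1010543-1028847), read 0.238, 0.306 and 0 CPM against 2.06, 2.96 and 1.24 CPM at 8 h and 0.507, 0.318 and 0.575 against 4.74, 5.07 and 3.52 CPM at 16 h. The GRHL2-ERT levels lay near that of 3 reads, and the log2 fold changes were -1.36 (limma adjusted p = 0.04) and -1.88 (limma adjusted p = 0.00098). The histone demethylase gene Uty read 2.02, 2.76 and 2.11 against 5.65, 4.07 and 5.54 CPM at 8 h and 3.30, 2.86 and 1.87 against 6.31, 6.20 and 8.11 CPM at 16 h (average log2 fold change -0.997, limma adjusted p = 0.00035). Uba1y was lower too (average log2 fold change -0.97, limma adjusted p = 0.02). Kdm5d read 0 CPM in all 6 GRHL2-ERT ethanol libraries and at most 0.0757 CPM without the transgene. Reads can be shared with the X-linked partners of these genes, none of which was called: Ddx3x had log2 fold changes of 0.02 and 0.03, Kdm6a -0.22 and -0.01, Eif2s3x -0.20 and 0.12, and Uba1 -0.15 and -0.02. In these bulk samples fewer cells with a Y transcript and less of it per cell cannot be told apart.

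The distal part of chromosome 3 was higher in the GRHL2-ERT line at 16 h and not at 8 h. The median over the 560 genes of chromosome 3 was -0.07 at 8 h and 0.12 at 16 h, while the other 19 chromosomes besides Y stayed between -0.04 and 0.04 at 8 h and between -0.03 and 0.01 at 16 h. The difference between times was 0.19 (exact permutation p = 0.005, the smallest possible, adjusted p = 0.026 over 21 chromosomes). In windows of 20 Mb, the 3 windows from 100 Mb onward had medians of 0.27 to 0.30 at 16 h, and the 132 other windows -0.13 to 0.13. At 8 h these 3 had -0.13 to -0.02 and the 132 others -0.19 to 0.08. The lowest at 8 h were chromosome 3 at 40 to 60 Mb and at 60 to 80 Mb (-0.19 each). Of the 120 genes from 100 Mb onward with at least 10 CPM, 113 lay above 0 at 16 h (94.2%) and 52 at 8 h (43.3%). Of 193 such genes up to 100 Mb, 109 lay above 0 at 16 h (56.5%) and 64 at 8 h (33.2%). The chromosome's difference between times thus also holds a lower proximal part at 8 h. The windows and the boundary were chosen after the chromosome medians were seen.

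Each library showed it. Relative to the mean over the libraries, the stretch stood at 0.26, 0.25 and 0.22 in the GRHL2-ERT ethanol libraries at 16 h and at -0.05, 0.00 and -0.04 without the transgene. Tamoxifen libraries of the GRHL2-ERT line at 16 h stood at 0.26, 0.23 and 0.27. Of 202 tested genes in the stretch, 4 were called higher at 16 h and none lower, against 0.0725% and 0.0967% of all genes. The stretch was bounded on these same 16 h values, so its counts are not independent of that choice. Larp7, Pkn2 and Zzz3 were among the 4. At an unadjusted p under 0.05, 59 were higher (29.2%, against 4.31% of all genes) and 0 lower, against 9 and 12 at 8 h. Without replicate 2 of the double-KO tamoxifen cells at 8 h, 12 genes of the stretch were called higher at 16 h, of 31 called higher among all genes.

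**Figure D5:**
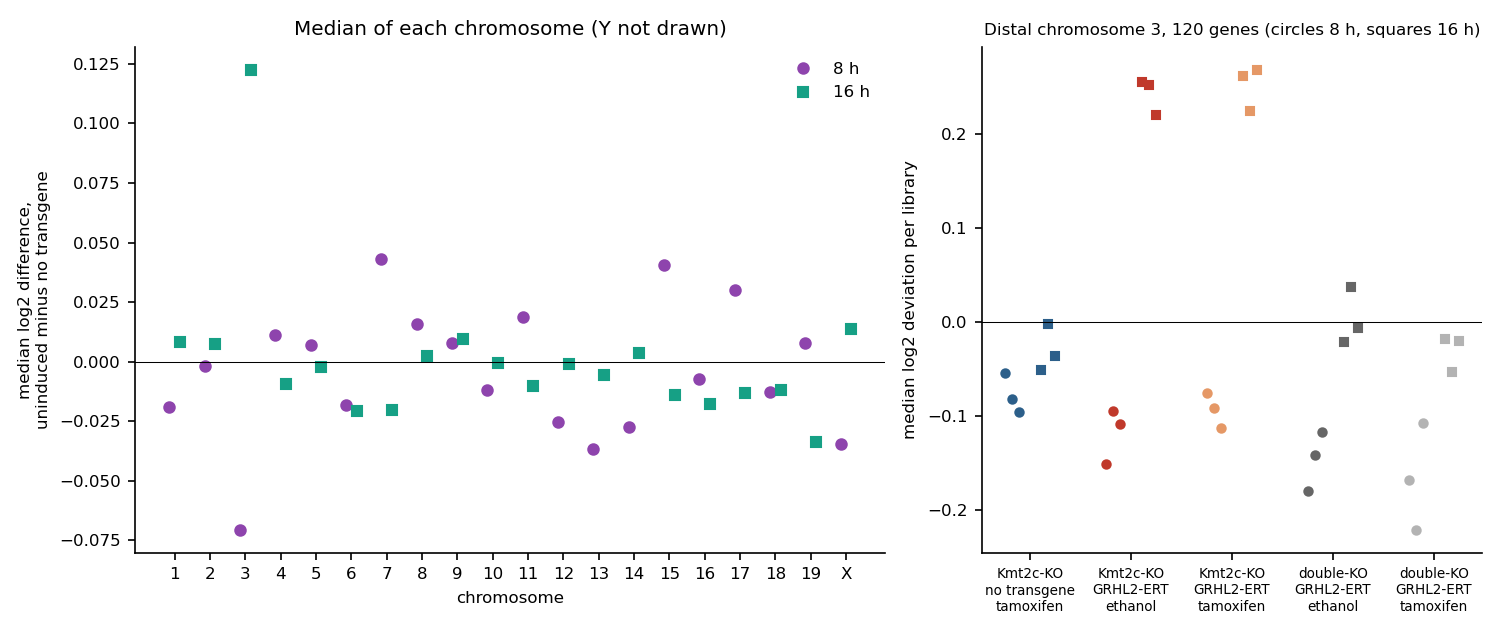
Left, median log2 difference of each chromosome's genes (GRHL2-ERT in ethanol minus no transgene, Y not drawn), where chromosome 3 lies at -0.07 at 8 h and 0.12 at 16 h. Right, median log2 deviation of the 120 genes of distal chromosome 3 in each library, at 0.22 to 0.27 in the 6 GRHL2-ERT Kmt2c-KO libraries at 16 h.

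Larp7 (chr3:127536714-127553349), which stabilises the 7SK RNA, read 529, 518 and 559 against 350, 390 and 440 CPM at 16 h (log2 fold change 0.45, limma adjusted p = 0.024). The kinase gene Pkn2 (chr3:142790902-142882004) read 157, 157 and 163 against 117, 117 and 112 CPM (log2 fold change 0.46, limma adjusted p = 0.027). Zzz3 (chr3:152395473-152462826), a chromatin reader subunit, read 67.6, 74.0 and 75.6 against 50.4, 52.0 and 50.0 CPM (log2 fold change 0.50, limma adjusted p = 0.037). These 3 genes separated without overlap at 16 h, and missed the threshold with median-of-ratios scaling, with limma adjusted p of 0.13, 0.064 and 0.13 in that order. In tamoxifen with GRHL2-ERT at 16 h their log2 fold changes against the transgene-free cells were 0.36, 0.41 and 0.55.

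Other calls came from genes of many kinds. At 8 h the protease inhibitor gene Serpina3m, a member of a family of close copies whose reads may be shared, read 1.73, 1.41 and 0.73 CPM against 6.07, 9.13 and 5.11 CPM (log2 fold change -1.76, SE 0.27, limma adjusted p = 0.0019). At 16 h its value was -0.23 (limma adjusted p = 0.99). The glycan phosphatase gene Pxylp1 read 7.02, 9 and 5.84 against 3.01, 2.69 and 1.24 CPM at 8 h (log2 fold change 1.35, limma adjusted p = 0.014) and had 0.24 at 16 h. Rdm1, a RAD52-like gene, read 50.5, 35.1 and 48.1 against 26.5, 25 and 28 CPM at 8 h (log2 fold change 0.71, limma adjusted p = 0.015) and had -0.19 at 16 h. The chemerin receptor gene Cmklr1 read 1.78, 1.65 and 1.62 CPM against levels under that of 3 reads at 8 h (limma adjusted p = 0.04), and lost its call when any 1 library was left out. Dkkl1, a germ-cell secreted protein, rose at 8 h (5.89, 5.39 and 5.6 against 2.11, 3.15 and 3.01 CPM, log2 fold change 0.83, limma adjusted p = 0.04) and read 7.82, 11.9 and 10.4 CPM in tamoxifen with GRHL2-ERT. In tamoxifen with GRHL2-ERT at 8 h, Pxylp1 had a log2 fold change of 0.66 against the transgene-free cells, Rdm1 0.21 and Cmklr1 0.59.

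At 16 h the MHC class II gene H2-Eb1 read 20.7, 22.6 and 20.4 CPM against 9.53, 11.7 and 9.57 CPM (log2 fold change 0.98, limma adjusted p = 0.026). The splicing-linked gene Paxbp1 read 36.2, 41.0 and 31.3 against 24.2, 23.7 and 24.8 CPM (log2 fold change 0.55, limma adjusted p = 0.049). Zscan4c, of a multi-copy family that marks cells like the two-cell embryo, fell with 6.37, 6.69 and 5.11 against 19.3, 16.1 and 17.3 CPM (log2 fold change -1.40, SE 0.22, limma adjusted p = 0.0028). In tamoxifen with GRHL2-ERT it was -1.52. At 8 h Zscan4c was at most 1.53 CPM in all 6 libraries. Of the two-cell-like genes listed 7 of 23 were tested, with a median of -0.77 at 16 h and Zscan4c the 1 called. At an unadjusted p under 0.05, 5 of the 7 were lower at 16 h (71.4%, against 2.50% of all genes). BB287469, A430089I19Rik, B020031M17Rik and Gm20767, outside the naming rule by their symbols, were also called lower at 16 h (limma adjusted p = 0.016, 0.037, 0.019 and 0.013). In tamoxifen with GRHL2-ERT their log2 fold changes against the transgene-free cells were -0.89, -0.59, -1.61 and -1.24. The ribosomal-like gene Rpl10l, which may share reads with its copies, read 63.3, 61.0 and 62.2 against 87.0, 109 and 121 CPM (log2 fold change -0.75, limma adjusted p = 0.026). Atp5o, an ATP synthase subunit, read 507, 494 and 487 against 717, 656 and 663 CPM (log2 fold change -0.45, limma adjusted p = 0.026). Plac9a, which has a near-identical copy Plac9b, read 0, 0 and 3.96 against 13.1, 9.15 and 5.27 CPM (limma adjusted p = 0.0033) and 0 in all 8 h libraries of these groups. In tamoxifen the GRHL2-ERT line read 6.65, 8.69 and 6.60 CPM of Plac9a at 16 h, a log2 fold change of -0.23 against the transgene-free cells. Igfbp7 read 0.380, 0.159 and 0.288 against 1.76, 2.12 and 1.06 CPM (log2 fold change -1.04, limma adjusted p = 0.026), low levels that lose the call with voom.

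The named calls rested on single libraries to different degrees. Serpina3m, Zscan4c, Grhl2, Esr1, Meg3, Eif2s3y, Ddx3y, H19, Mirg, Dkkl1, Uty and Rian, 12 of 27 named genes called, passed whichever library of the compared groups was left out, in the contrast that names them or in the average over both times. Under other settings Zscan4c lost its call with a pseudocount of 0.1 CPM (limma adjusted p = 0.12), Rian with the 12 libraries fitted alone (0.13), Dkkl1 with these (0.062) and with voom (0.054), and Eif2s3y with voom (0.12). Atp5o lost its call on average without 7 of the 12 libraries taken singly (limma adjusted p up to 0.08). Plac9a lost its call without replicate 1 or 2 of the 16 h GRHL2-ERT cells (limma adjusted p up to 0.052). Pxylp1 lost its call without replicate 1 or 2 with GRHL2-ERT or replicate 3 without it, all at 8 h (limma adjusted p up to 0.17). Zzz3 and Pkn2 lost theirs without any 1 of the 6 libraries at 16 h. Rdm1, H2-Eb1, Paxbp1, Larp7, Igfbp7 and Rpl10l each lost theirs for 5 of 6 libraries at the time they were called, with limma adjusted p up to 0.37.

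Of 26 naive pluripotency genes limma called 0 at either time (medians -0.01 and -0.01), with 1 higher at an unadjusted p under 0.05 at 8 h and 1 higher and 1 lower at 16 h, and voom called 0. Of 22 formative and primed genes limma called 0, with 2 higher and 2 lower unadjusted at each time, and voom called 1 at 16 h. Without replicate 2 of the double-KO tamoxifen cells at 8 h the Nodal antagonist gene Lefty1 of that list was called lower at 16 h (log2 fold change -0.70, limma adjusted p = 0.021). Among 14 estrogen response genes the 1 called was Esr1 itself. Of 15 genes of tamoxifen and xenobiotic metabolism limma called 0, with 3 lower at 8 h and 3 higher at 16 h unadjusted (20% each, against 571 of all 12414 genes lower at 8 h and 4.31% higher at 16 h). Of 10 ethanol and aldehyde metabolism genes limma called 0, with 3 lower at 8 h unadjusted (30%), and voom called 0 in either list. Of 25 cholesterol synthesis and SREBP genes limma and voom called 0, 5 were lower and 0 higher on average at an unadjusted p under 0.05, and the medians were -0.16 at 8 h and -0.12 at 16 h. Of these 25, 14 were below 0 at both times, as were 24.1% of all genes. Averaged over both times the germ-cell bridge gene Tex14 rose by 0.49 (limma adjusted p = 0.02) and the stress gene Gadd45g by 0.58 (limma adjusted p = 0.036). Tex14 lost its call without 8 of the 12 libraries taken singly and Gadd45g without 9. In 25 of the 31 lists no gene was called at either time or on average.

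No gene passed the test for a change of the difference between 8 h and 16 h (0% of genes). By limma 907 had an unadjusted p under 0.05, and voom called 0. Array weights called 32, and the 12 libraries fitted alone 15. Without replicate 2 of the double-KO tamoxifen cells at 8 h 21 were called, 14 higher and 7 lower at 16 h than at 8 h, and 8 of the 14 higher lay on chromosome 3.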

How the data were processed

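RNA of the 30 libraries was read as 3′ tags from single-end 50 bp reads; Salmon, DESeq2 1.34.0 and the mm10 build are named in the submitters' processing notes, without their roles. The deposited table holds 12428 genes as log2 values, which the steps between low values show to be log2(CPM + 0.124871); CPM were computed back from them. Low values came out as whole reads, within 0.05 reads, for 96.8% to 98.0% of values in the 12 libraries, which gave the depths. Levels were refitted as log2(CPM + 1) with limma 3.58.1 (R 4.3.3), a mean per group over all 30 libraries, trend and robust variance and Benjamini-Hochberg adjustment. Genes that reached a mean of 1 CPM in any group were tested, 12414 in all (residual degrees of freedom 20); 14 were removed. A fold change on this scale understates that of low genes. Contrasts were GRHL2-ERT in ethanol minus no transgene at 8 h and at 16 h, their average and their difference. Medians per chromosome were compared by exact permutation over libraries within times. Of the gene symbols 11945 (96.1%) were placed on GENCODE vM21 (mm10). edgeR was not run, since the deposited values are not counts. Alternatives were other pseudocounts, no filter, other scaling, array weights, a replicate block, voom and leaving out libraries. The model was tested on simulated data.

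Named genes passed the test with groups that did not overlap, a mean of at least 1 CPM and a proper symbol: up to 12 in each direction at both times, then up to 6 at each time, up to 5 for the difference, up to 4 per list, and always Grhl2, Esr1, Kmt2c and Kmt2d. Named outside this rule, as values of lists or examples chosen after their values were seen, were Cldn4, Wnt7b, Esrp1, Cgn, Wfdc2, Sord, Lefty1, Epcam, Cdh1, Dlk1, Igf2, Mest, Zrsr1, Grb10, Plagl1, Uba1y, Kdm5d, Zfy1, Acadvl, BB287469, A430089I19Rik, B020031M17Rik, Gm20767 and the X-linked partners. A further gene chosen this way is not reported here. The comparison, the lists and the members named were chosen with earlier results of these data known.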

Additional observations from a re-analysis of the deposited data

Results flagged for a closer look

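The difference between the groups changed between 8 h and 16 h for 5 chromosomes by the exact permutation test over libraries. Chromosome 3 moved by 0.193 on the log2 scale (adjusted p = 0.026). Larp7 and Pkn2 were among the distal genes called at 16 h, and neither passed the test of the difference between times (limma adjusted p = 0.2 each). Chromosome 1 moved by 0.0274, chromosome 7 by -0.0634 and chromosome 17 by -0.0434 (adjusted p = 0.026 each), and chromosome 15 by -0.0545 (adjusted p = 0.042). The last 4 shifts are small beside that of chromosome 3, and none of the 21 chromosomes was called for the average over both times. At the smallest possible permutation p of 0.005, the adjusted p depends on how many chromosomes share it. Chromosomes 1, 3, 7 and 17 shared it for the difference, and chromosomes 9 and Y for the average (adjusted p = 0.0525). A call or its lack therefore does not follow the size of a shift. Groups of 3 were not tested for single samples that stand apart.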

How the results depend on the processing

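Counts are given in the order 8 h, 16 h, average and difference between times, where the values reported are 13, 21, 35 and 0. A pseudocount of 5 CPM gave 33 at 16 h and 1 for the difference. The 12 libraries fitted alone gave 69, 57, 65 and 15. Array weights gave 38, 274, 134 and 32. A log2 fold change of at least 1 left 12 at 16 h and 10 on average. Added after the data were seen, voom gave 20 on average, and leaving out replicate 2 of the double-KO tamoxifen cells at 8 h gave 69, 58, 107 and 21. Leaving out 1 library of the compared groups gave 5 to 10, 6 to 13, 19 to 29 and 0 to 2. At 8 h every library but replicate 2 with GRHL2-ERT moved the count by over 1.5 times, at 16 h every library did, and the average fell to 19 without replicate 2 with GRHL2-ERT or replicate 1 without it, both at 16 h. The difference between times of chromosome 3 stayed at 0.17 to 0.21 and the Y median at -0.96 to -0.89 in these (-1.16 over 4 genes). None of 27 genes reversed in 510 values (396 kept the call, 114 lost it), and 8 kept it under every setting: Serpina3m, Grhl2, Esr1, Meg3, Ddx3y, H19, Mirg and Uty. With median-of-ratios scaling Larp7, Pkn2, Zzz3 and Paxbp1 lost theirs.

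A replicate block on the 12 libraries gave 15, 14, 28 and 0 calls, and 13 named genes lost theirs. These were Zscan4c, Rian, Dkkl1, Cmklr1, H2-Eb1, Paxbp1, Zzz3, Pkn2, Plac9a, Igfbp7, Rpl10l, Tex14 and Gadd45g. Libraries of the same number did not deviate together (correlations -0.17, -0.08 and 0.01 at 8 h and 0.00, 0.09 and -0.06 at 16 h), and 1 of 3 correlated best with its own number at each time, so the numbers give no pairing.

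Depth limits the genes near 3 reads, such as Eif2s3y, Cmklr1 and Igfbp7, and 3 libraries a group limit the small shifts: the median standard error of a log2 fold change was 0.217. Transgene and clone cannot be told apart.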

Other observations

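Genes called only for the average over both times included Neat1, the noncoding RNA of paraspeckles, which read 65.4, 73.3 and 64.4 CPM with GRHL2-ERT and 43.3, 49.5 and 38.4 CPM without at 8 h, and 26.4, 28.3 and 24.6 against 18, 20.8 and 22.9 CPM at 16 h. Its average log2 fold change was 0.49 (SE 0.10, limma adjusted p = 0.028), and the groups did not overlap at either time. The mitochondrial creatine kinase gene Ckmt1 rose by 0.76 (limma adjusted p = 0.019) and the fatty acid oxidation gene Acadvl by 0.72 (limma adjusted p = 0.022). The bicarbonate transporter gene Slc4a5 fell by 0.56 (limma adjusted p = 0.014). These genes were picked after their values were seen.

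Replicate 1 of the 16 h cells without the transgene read 175 CPM of Pou5f1, against 361 and 381 CPM in the others of its group, and 5.28 CPM of Rian, against 13.8 and 20.5 CPM. The average comparison without that library called 19 genes.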
